A study of Mus musculus with 18 samples.

Results

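Serpins are protease inhibitors, and the 9 mouse genes described here were selected by name from 45706 genes in the expression tables. They are Serpina3f, Serpina3g, Serpina3h, Serpinb1a, Serpinb6a, Serpinb6b, Serpinb9, Serpinb9b and Serpine2. Serpina3f was also chosen by a measured value, its fall with ibrutinib, so its values are given as a description with no test. Of the 9 genes, 8 are protein-coding and passed the filter on low counts. Serpina3h, annotated as a transcribed unprocessed pseudogene, had 0 counts in all 18 libraries, which allows up to 3 counts in each, for counting error only. The tables hold RNA levels, and protection of the cells was not measured.

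Purified CD8+ T cells of OT-I mice, whose transgenic T cell receptor recognizes an ovalbumin (OVA) peptide, were cultured with IL-15 and IL-7, and RNA was sequenced on day 8. Repeat peptide stimulated cells received 10 ng/ml peptide daily for the first 5 days and serve as a culture model of T cell exhaustion. Single peptide stimulated cells met the peptide for 48 hours only and were then rested. From day 5, cells were given DMSO, the solvent, or 1 µM ibrutinib, an irreversible inhibitor of BTK that also binds other kinases. Peptide stayed in the medium of repeat peptide cells during this treatment, so their stimulation did not end before the drug was given. There were 4 libraries of repeat peptide cells with DMSO, 5 of repeat peptide cells with ibrutinib, 5 of single peptide cells with DMSO and 4 of single peptide cells with ibrutinib. The labels list every strain as OT-1 WT and name 6 experiments, lettered A to F here, of which A to D gave a library of each group. Experiment E supplied a library of repeat peptide cells with ibrutinib and no other, and F supplied one of single peptide cells with DMSO. The genotype entries of B to E read like knockout names (for example btk KO-6), and since the study describes this sequencing without btk deficient cells, they were read as experiment names. The labels give no age of the mice and do not say whether the libraries of an experiment came from 1 animal, so p-values measure the spread between these libraries.

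A serpin offers a reactive loop to a protease, is cut, and locks the enzyme in an inactive complex. Cytotoxic T cells carry granzymes and cathepsins in their granules, and serpins of the cytosol can inactivate enzyme that leaks from them. Serpinb9 is the classical inhibitor of granzyme B in such cells, and Serpina3g (also called Spi2A) inhibits lysosomal cathepsins such as cathepsin B.

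Serpina3f and Serpina3g are neighbouring copies on chromosome 12 of GRCm38, from 104214544 to 104221129 and from 104236245 to 104241939 on the plus strand. Serpina3h lies next to them, from 104247905 to 104253669. Serpinb6b (32965209 to 32979067), Serpinb9 (33003250 to 33017957) and Serpinb9b (33027416 to 33041884) stand in a row on the plus strand of chromosome 13. Serpinb1a (32842092 to 32851185) and Serpinb6a (33917918 to 34002794) lie on its minus strand, and Serpine2 on the minus strand of chromosome 1 from 79794197 to 79861180. RSEM shares out reads that match several genes, and among the 9 genes only Serpina3f and Serpina3g had expected counts more than 0.005 away from a whole number, in 2 libraries each. Serpinb6a overlaps Nqo2, Ripk1 and 1110046J04Rik on the other strand. The libraries are strand-specific, but whether counting used the strand is not given in the sources used here.

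The 250 bases before the start are shown for Serpina3f and Serpina3g because these neighbours moved together across the groups. They come from RefSeq promoters on GRCm38.p6, plus strand, at chr12:104214294-104214543 and chr12:104235897-104236146, and capitals mark matches to TTCNNNGAA, the palindromic letters of a STAT site. RefSeq lists a further start of Serpina3f, which is not shown.
Serpina3f: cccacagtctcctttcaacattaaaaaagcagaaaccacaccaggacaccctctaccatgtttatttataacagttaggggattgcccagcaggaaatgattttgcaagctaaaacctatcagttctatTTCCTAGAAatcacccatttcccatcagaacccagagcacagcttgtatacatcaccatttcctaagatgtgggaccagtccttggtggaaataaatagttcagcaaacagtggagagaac
Serpina3g: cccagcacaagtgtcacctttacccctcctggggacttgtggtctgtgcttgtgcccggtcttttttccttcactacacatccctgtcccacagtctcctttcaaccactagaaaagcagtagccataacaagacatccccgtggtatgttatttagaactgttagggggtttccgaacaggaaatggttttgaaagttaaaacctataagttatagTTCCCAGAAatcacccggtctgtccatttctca
The match lies at bases -121 to -113 before the Serpina3f start and at -33 to -25 before the Serpina3g start. In Serpina3f it overlaps a match to GAAANNGAA, the letters of an IRF site on either strand, at -127 to -119. A local alignment of the pair of sequences covered 147 columns, of which 119 (81.0%) were identical.

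Serpinb9 and Serpinb9b are shown as neighbouring copies whose levels parted with ibrutinib in repeat peptide cells, while both were higher with repeat stimulation. They come from chr13:33004291-33004540 and chr13:33027164-33027413 on the plus strand, with capitals for matches to the IRF letters. The Serpinb9 window lies inside the annotated gene (33003250 to 33017957) and that of Serpinb9b before its gene (from 33027416), so the windows differ in place.
Serpinb9: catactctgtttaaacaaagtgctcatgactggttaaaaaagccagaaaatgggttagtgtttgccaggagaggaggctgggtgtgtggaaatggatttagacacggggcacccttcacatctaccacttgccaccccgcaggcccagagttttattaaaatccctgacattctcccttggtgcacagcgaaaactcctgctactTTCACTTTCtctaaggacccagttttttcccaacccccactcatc
Serpinb9b: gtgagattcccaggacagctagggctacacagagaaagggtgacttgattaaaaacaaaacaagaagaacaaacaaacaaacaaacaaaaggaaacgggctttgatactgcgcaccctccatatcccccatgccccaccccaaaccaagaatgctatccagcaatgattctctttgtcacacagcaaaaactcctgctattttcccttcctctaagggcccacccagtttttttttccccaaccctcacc
Serpinb9 has this match at -45 to -37 and Serpinb9b has none, and their local alignment covered 167 columns with 118 identical (70.7%). Of the 7 genes with a RefSeq promoter entry, Serpinb6a also held a STAT match (-77 to -69) and an overlapping IRF match (-83 to -75). No first promoter of these 7 genes held TGANTCA, the letters of an AP-1 site. Over 32536 mouse promoters, the same 250 base window held the STAT letters in 7.04%, the IRF letters in 7.15% and the AP-1 letters in 6.73%. These matches describe letters and not bound sites.

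Levels are given in TPM, a share of all transcripts scaled to the same total in each library, which accounts for transcript length and can be compared between genes. The summed level of the 9 genes was 483 ± 74.6 TPM (SD, n = 4) in repeat peptide cells with DMSO and 475 ± 116 TPM (SD, n = 5) in those with ibrutinib. It was 197 ± 53.2 TPM (SD, n = 5) in single peptide cells with DMSO and 96.3 ± 7.39 TPM (SD, n = 4) in single peptide cells with ibrutinib. Serpina3g was the largest part in every group, at a mean of 39.9%, 57.6%, 70.8% and 57.0% of the sum in that order. Serpine2 held 19.1% of the sum in repeat peptide cells with DMSO and 4.54% in those with ibrutinib. Of the counts of each family of close copies, Serpina3g held 86.3% and Serpina3f 13.7% in the Serpina3 cluster. Serpinb9 held 92.6% against 7.38% for Serpinb9b, and Serpinb6a 71.5% against 28.5% for Serpinb6b.

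**Figure D1:**
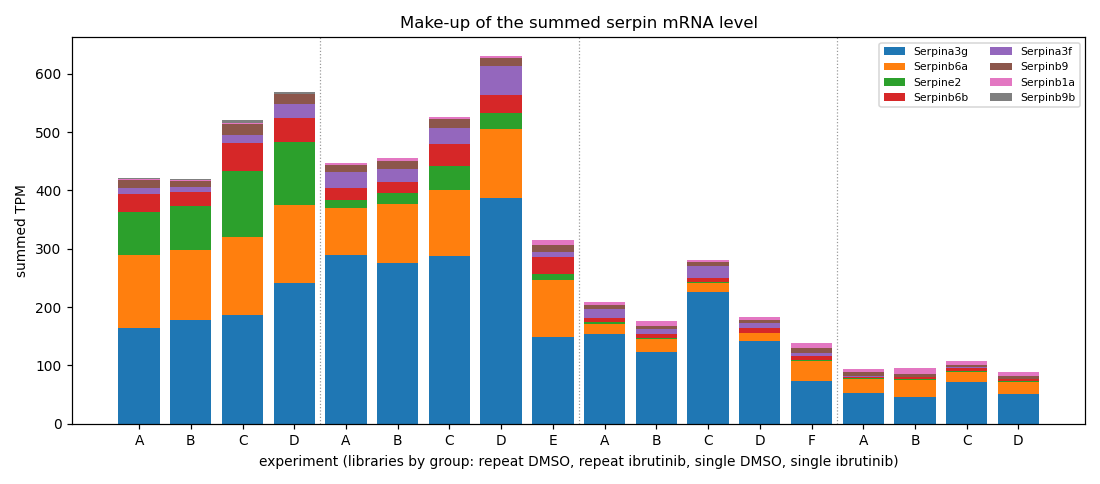
Stacked bars of TPM of the serpin genes in each of 18 libraries, with libraries ordered by group and lettered by experiment. Serpina3g (blue) and Serpinb6a (orange) form most of each bar, and Serpine2 (green) is broadest in repeat peptide cells with DMSO.

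Differences were tested with the quasi-likelihood test of edgeR on the expected counts of 12255 genes, with Benjamini-Hochberg adjustment over all of them. To be called changed, a gene needed an adjusted p under 0.05, a log2 fold change beyond 0.2 in either direction and a normalized count averaging 50 or more. Counts of called genes cover the 7 tested genes other than Serpina3f. Libraries held between 23445922 and 51995372 expected counts in total. Summed CD8 T cell markers were at 2734 to 4063 TPM over all libraries. The summed markers of B cells stayed at or under 7.10 TPM, those of myeloid cells at or under 8.65 TPM and those of dendritic cells at or under 4.32 TPM. Those of NK cells, some of which activated CD8 T cells share, ranged from 4.65 to 40.7 TPM, those of CD4 T cells from 0.02 to 8.49 TPM and those of fibroblasts and platelets from 0.01 to 5.56 TPM. Their part in the results was not tested. In bulk RNA, fewer cells expressing a gene and less of its RNA per cell cannot be told apart.

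Repeat against single peptide stimulation with DMSO asks which serpin genes differ in the exhaustion model itself. Here 5 of the 7 genes were higher and 1 was lower, against 22.8% and 24.2% of all tested genes. Their median log2 fold change was 2.19, and that of all tested genes 0.00 (-0.002). With ibrutinib in both groups, 6 of 7 were higher and 0 lower, against 18.7% and 19.6% of all genes (edgeR). At an unadjusted p under 0.05, 1 was lower, and DESeq2 called 0 lower. The median over the 7 genes was 2.29 on the log2 scale. The pair of stimulation comparisons uses different libraries.

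Serpinb9 was at 14.4, 9.15, 19.2 and 17.0 TPM in repeat peptide cells with DMSO of experiments A, B, C and D. In single peptide cells with DMSO it was at 5.98, 4.12, 6.43 and 5.62 TPM in the same experiments and at 8.16 TPM in F. The groups did not overlap, and Serpinb9 rose 2.18-fold (log2 1.12, SE 0.21, edgeR adjusted p = 0.000188). With ibrutinib, repeat peptide cells had 11.3, 13.8, 14.8, 13.7 and 11.9 TPM in A, B, C, D and E, and single peptide cells 5.97, 4.29, 3.74 and 4.18 TPM in A to D. This difference was 2.65-fold (log2 1.41, SE 0.21, adjusted p = 4.44e-05).

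Serpinb9b, the neighbouring copy of Serpinb9, was at 1.15, 1.20, 6.09 and 3.00 TPM in repeat peptide cells with DMSO of A, B, C and D. Its expected counts there were 63, 93, 569 and 206, whereas single peptide cells with DMSO had 8, 1, 0, 4 and 0 counts. With ibrutinib, single peptide cells had 1, 0, 3 and 5 counts in A to D, and repeat peptide cells 4, 23, 64, 35 and 58 in A to E. These ibrutinib groups overlapped in counts, and in TPM they came as close as 0.07 and 0.05. The DMSO groups stood apart. The fitted log2 difference with DMSO was 6.08, with a wide 95% interval from 4.20 to 7.96 (edgeR adjusted p = 2.04e-05). At these few counts the fitted fold depends on how the model treats values near 0. With ibrutinib the difference was 4.05 on the log2 scale (SE 0.97, adjusted p = 0.00254). Without the repeat peptide DMSO library of C or of D, the mean count of Serpinb9b fell under 50, so both calls were lost although the adjusted p stayed at or under 0.00354. The call with ibrutinib was also lost in a fit of only the compared groups (4.09, adjusted p = 0.00469). The log2 difference with DMSO was 5.42 without the library of C and 7.10 without the single peptide DMSO library of A, and the one with ibrutinib was 4.82 without the single peptide ibrutinib library of D.

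**Figure D2:**
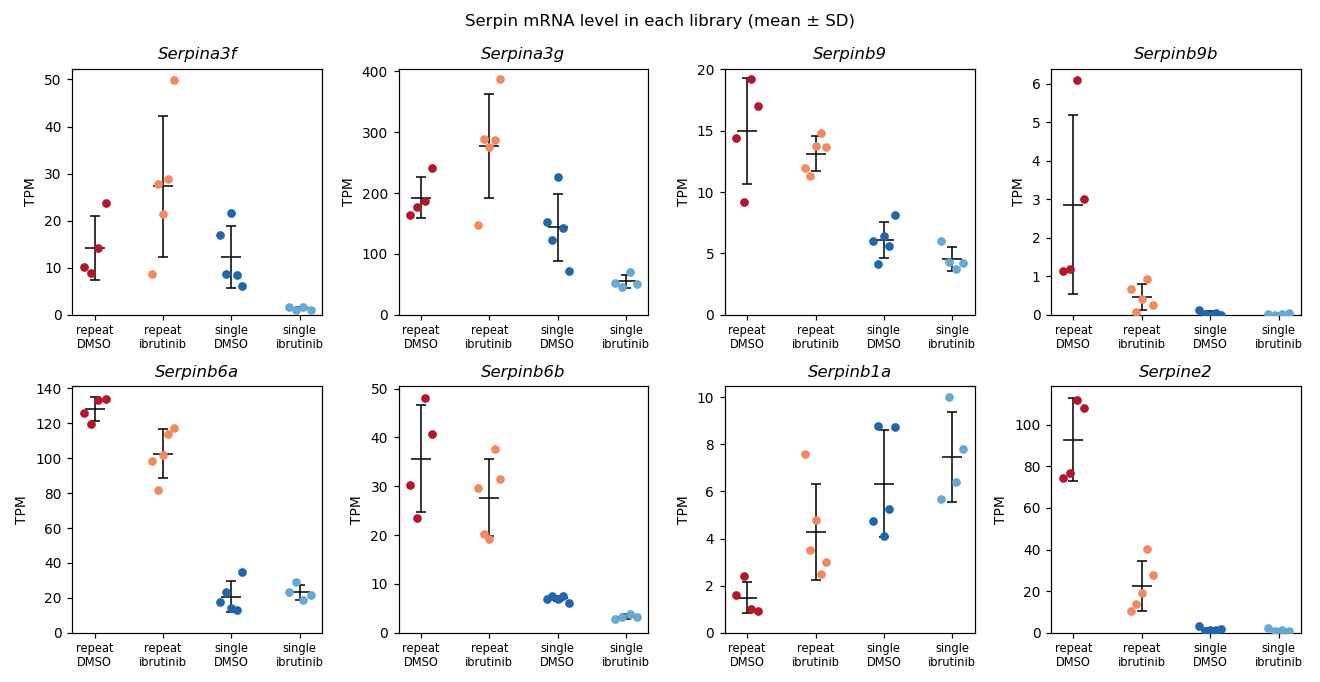
TPM of 8 serpin genes (y axes from 0, each on its own scale) in each library of 4 groups (x axis), with points for libraries and black bars for mean ± SD, cut at 0. Serpine2, Serpinb6a, Serpinb6b and Serpinb9 are higher in every repeat peptide library than in any single peptide library, and Serpinb1a is lowest in repeat peptide cells with DMSO.

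Serpinb6a, the mouse counterpart of an inhibitor of cathepsin G and trypsin-like proteases, was also higher in repeat peptide cells. It was at 126, 120, 133 and 134 TPM in repeat peptide cells with DMSO and at 17.7, 23.1, 14.4, 12.7 and 35.0 TPM in single peptide cells with DMSO. It rose 6.10-fold (log2 2.61, SE 0.21, edgeR adjusted p = 1.81e-08) and, with ibrutinib in both groups, 4.89-fold (log2 2.29, SE 0.22, adjusted p = 2.74e-07). Serpinb6b, known as an inhibitor of granzyme A, went from 6.18 to 7.56 TPM in single peptide cells with DMSO to 23.6 to 48.2 TPM in repeat peptide cells with DMSO. That was a 4.55-fold rise (log2 2.19, SE 0.28, adjusted p = 4.28e-06). With ibrutinib the difference was 7.58-fold (log2 2.92, SE 0.31, adjusted p = 7.07e-07), and the groups did not overlap in either comparison.

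Serpine2, or protease nexin-1, is a secreted inhibitor of thrombin and plasminogen activators. It was at 74.4, 77.0, 112 and 108 TPM in repeat peptide cells with DMSO of A to D. In single peptide cells it lay between 0.80 and 2.99 TPM with DMSO and between 0.75 and 2.03 TPM with ibrutinib. The difference was 60.2-fold with DMSO (log2 5.91, SE 0.44, edgeR adjusted p = 7.77e-09) and 15.6-fold with ibrutinib (log2 3.96, SE 0.44, adjusted p = 1.51e-06).

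Serpinb1a, an inhibitor of neutrophil elastase and cathepsin G, went the other way. It was at 1.62, 2.39, 1.01 and 0.94 TPM in repeat peptide cells with DMSO, below every single peptide DMSO library (4.10 to 8.80 TPM). It was 4.73-fold lower (log2 -2.24, SE 0.42, edgeR adjusted p = 0.000222). With ibrutinib in both groups the log2 difference was -0.85 (SE 0.38, adjusted p = 0.0805), and the groups overlapped because of the experiment E library at 7.59 TPM. Without that library the difference was -1.39 (adjusted p = 0.00155), and with experiment as a block it was -1.40 (adjusted p = 3.91e-05). That library also held S100a8 at 3.88 TPM and S100a9 at 2.24 TPM, which were at 0.00 TPM in the other repeat peptide ibrutinib libraries. Both are on the list of myeloid markers, of which Elane, Mpo, Itgam, Csf1r and Adgre1 stayed under 1 TPM in that group. Lyz2 was at 1.94 TPM in E, and in single peptide cells of A at 5.92 TPM with DMSO and 4.45 TPM with ibrutinib. Whether these genes bear on the Serpinb1a value was not tested.

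Serpina3g did not pass the test between the DMSO groups, with a log2 difference of 0.21 (95% interval -0.38 to 0.81, adjusted p = 0.545). It was at 164, 177, 187 and 241 TPM in repeat peptide cells with DMSO and at 153, 123, 227, 142 and 72.8 TPM in single peptide cells with DMSO. Serpina3f also overlapped, at 8.80 to 23.7 TPM and 6.15 to 21.6 TPM. With ibrutinib these 2 genes parted between the stimulations. Serpina3g was 4.26-fold higher in repeat peptide cells (log2 2.09, SE 0.30, edgeR adjusted p = 2.42e-05). Serpina3f had a mean of 27.3 TPM there and 1.36 TPM in single peptide cells.

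**Figure D3:**
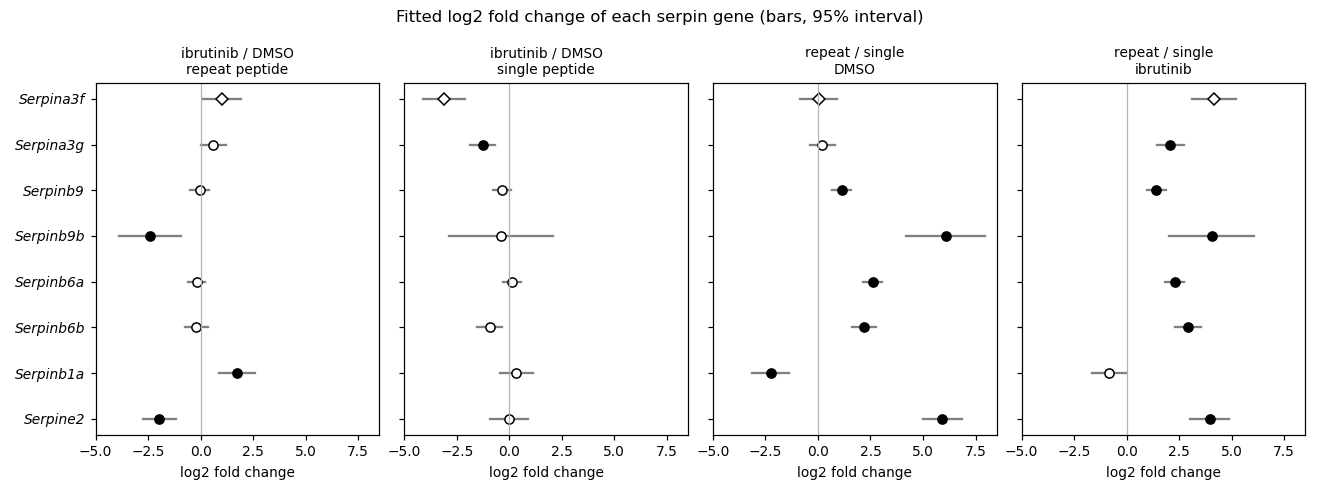
Fitted log2 fold change (x axis) of 8 serpin genes (y axis) in 4 comparisons, with 95% intervals. Filled circles passed the edgeR test, open circles did not, and diamonds mark Serpina3f, for which no test is given. In repeat against single peptide cells with DMSO most genes lie right of 0 and Serpinb1a lies left.

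Ibrutinib against DMSO in repeat peptide cells asks what the drug does in the exhaustion model. Of the 7 genes, 1 was higher and 2 were lower, against 4.01% and 1.92% of all tested genes. Their median log2 fold change was -0.20, and that of all tested genes was 0.00 (0.004).

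Serpine2 had the firmest change. Its level was 14.0, 19.2, 40.2, 28.0 and 10.4 TPM with ibrutinib in A, B, C, D and E, and every value lay below the DMSO range of 74.4 to 112 TPM. It fell 3.90-fold (log2 -1.96, SE 0.37, edgeR adjusted p = 0.00313), within experiments by 1.37 to 2.38 on the log2 scale. The call held without each library in turn, with adjusted p from 0.00103 to 0.0149. Even so, ibrutinib treated repeat peptide cells remained above every single peptide library.

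Serpinb1a rose to 3.53, 4.79, 2.49, 3.02 and 7.59 TPM in A, B, C, D and E, above the highest DMSO value of 2.39 TPM. The rise was 3.30-fold (log2 1.72, SE 0.42, edgeR adjusted p = 0.0165). Without the DMSO library of C or of D the adjusted p was 0.0732 or 0.0717, with log2 changes of 1.56 and 1.58, and in a fit of only these groups it was 0.0673. Without the library of E, which held S100a8 and S100a9, the change was 1.18 (adjusted p = 0.0417), and with experiment as a block 1.22 (adjusted p = 0.00189). Within experiments A to D the rise ranged from 0.73 to 1.73 on the log2 scale.

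Serpinb9b was at 0.07, 0.41, 0.94, 0.25 and 0.66 TPM with ibrutinib in A, B, C, D and E, below every DMSO library. It fell 5.34-fold (log2 -2.42, SE 0.70, edgeR adjusted p = 0.0474) on at most 64 counts per ibrutinib library. Leaving out a single library lost it in 10 of 18 fits, with adjusted p from 0.0506 to 0.249, the highest without the repeat peptide DMSO library of C (log2 -1.75). The other libraries whose removal lost it were D of the same group, A, B and D of repeat peptide ibrutinib, B and D of single peptide DMSO, and A, C and D of single peptide ibrutinib. It was also lost without the filter on low counts (adjusted p = 0.0894), with the length offset (0.0614), with all gene types (0.0513) and in a fit of only these groups (0.0738). With counts summed over the Serpinb9 cluster, of which Serpinb9 holds most, the log2 change was -0.25 (adjusted p = 0.558).

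Serpinb9 itself did not pass the test, with a log2 change of -0.06 (95% interval -0.49 to 0.38, adjusted p = 0.906). Serpinb6a and Serpinb6b did not pass either, at -0.20 (95% interval -0.62 to 0.23) and -0.20 (95% interval -0.77 to 0.36). In TPM, however, the Serpinb6a values with ibrutinib (81.9 to 117) lay below those with DMSO (120 to 134).

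Serpina3g was at 289, 275, 287 and 388 TPM with ibrutinib in A to D, each above its own DMSO culture, and at 148 TPM in E, below all of them. The fitted change was 0.60 on the log2 scale (SE 0.29, edgeR adjusted p = 0.231). With experiment as a block, it was 0.66 with an adjusted p of 0.0203 and the gene was called. Serpina3f was at 10.2, 8.80, 14.2 and 23.7 TPM with DMSO and at 27.8, 21.4, 28.8 and 49.9 TPM with ibrutinib in A to D, and at 8.70 TPM in E. Within experiments its log2 ratio was 1.03 to 1.46.

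Ibrutinib against DMSO in single peptide cells asks whether the drug also acts without continued antigen. Of the 7 genes 0 were higher and 1 was lower, against 0.351% and 2.69% of all tested genes, and their median log2 fold change was -0.34 (0.01 over all tested genes). In edgeR 0 were higher and 2 lower at an unadjusted p under 0.05, as in the calls of DESeq2. With experiment as a block, 2 were called. Among all 12255 tested genes the block had 340 higher and 774 lower, and DESeq2 87 and 529.

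Serpina3g was the gene called. It was at 52.9, 46.2, 70.7 and 50.7 TPM with ibrutinib in A to D, below the lowest DMSO library (72.8 TPM in F). It fell 2.42-fold (log2 -1.28, SE 0.29, edgeR adjusted p = 0.0216), and by 1.39 to 1.53 on the log2 scale within experiments. Without the DMSO library of C or D, or the ibrutinib library of A, B or D, the adjusted p lay between 0.0502 and 0.0886 and the log2 change between -1.29 and -1.02. It was also not called without the filter on low counts (adjusted p = 0.0695) or in a fit of only these groups (0.0759). Counts summed over the Serpina3 cluster had a log2 change of -1.42. That sum holds Serpina3f, which was chosen for its fall with ibrutinib, so it is no separate support for Serpina3g.

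Serpina3f, chosen for this fall, was at 16.9, 8.61, 21.6, 8.48 and 6.15 TPM with DMSO in A, B, C, D and F. With ibrutinib it was at 1.56, 1.10, 1.71 and 1.05 TPM in A to D. The fitted fold was 8.60 (log2 -3.11), and the ratio within experiments lay between -3.41 and -2.98 on the log2 scale. All 4 ibrutinib libraries were below all 5 DMSO libraries.

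Serpinb6b was at 2.86 to 3.92 TPM with ibrutinib and at 6.18 to 7.56 TPM with DMSO, without overlap. Its log2 change was -0.94 (SE 0.29, edgeR adjusted p = 0.0981), which did not pass. With experiment as a block it was -1.03 and was called (adjusted p = 0.00019), as it was by DESeq2 (adjusted p = 0.0207). Serpinb9 had a log2 change of -0.34 (95% interval -0.78 to 0.10), Serpinb6a 0.12 (-0.31 to 0.56), Serpinb1a 0.33 (-0.47 to 1.13) and Serpine2 -0.01 (-0.92 to 0.90), and none passed.

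**Figure D4:**
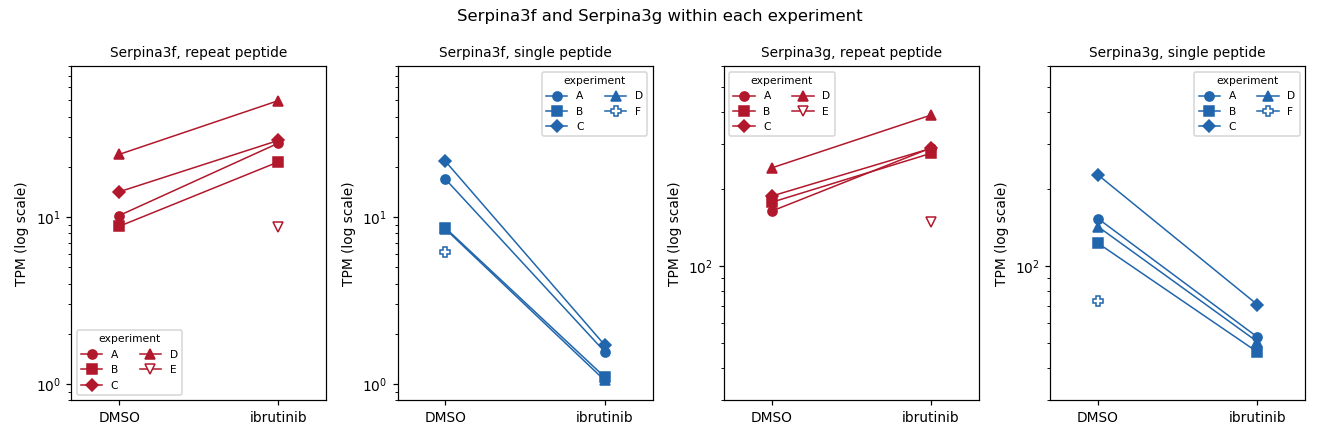
TPM (log scale) of Serpina3f and Serpina3g with DMSO and with ibrutinib in repeat (red) and single (blue) peptide cells, with lines joining libraries of an experiment and open symbols for experiments E and F. All 4 lines rise in repeat peptide cells and all 4 fall in single peptide cells for each gene.

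The interaction is the ibrutinib effect in repeat peptide cells minus that in single peptide cells. It was called higher for 1 of the 7 genes and lower for 0, against 1.04% and 0.212% of all tested genes, and their median was 0.28 on the log2 scale. By edgeR 1 was lower at an unadjusted p under 0.05, and DESeq2 called 0 lower. The gene was Serpina3g, with a difference of 1.88 (SE 0.41, edgeR adjusted p = 0.026). Without the repeat peptide DMSO library of A or C, or the single peptide ibrutinib library of A, B or D, the difference stayed between 1.74 and 1.90 and the adjusted p lay between 0.054 and 0.066, and without the filter on low counts it was 0.0786. For Serpina3f the same difference was 4.13, given as a description. Serpine2 had a difference of -1.95 (SE 0.57, adjusted p = 0.112), which was -2.26 with an adjusted p of 0.0387 without the repeat peptide ibrutinib library of C. Serpinb6a had one of -0.32 (adjusted p = 0.791), and -0.65 with an adjusted p of 0.0471 with experiment as a block, so that 2 genes were then called. Of all 12255 tested genes, 545 were higher and 134 lower with the block.

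Since Serpinb9 inhibits granzyme B, its level was set against that of Gzmb, which encodes that enzyme. Gzmb was at 1645 ± 518 TPM (SD, n = 4) in repeat peptide cells with DMSO and 701 ± 169 TPM (SD, n = 5) with ibrutinib. In single peptide cells it was at 179 ± 48.0 TPM (SD, n = 5) with DMSO and 64.0 ± 22.7 TPM (SD, n = 4) with ibrutinib. Gzmb fell with ibrutinib in both (log2 -1.12, edgeR adjusted p = 0.011, and -1.41, adjusted p = 0.00677) and rose with repeat stimulation (3.04, adjusted p = 4.28e-08, and with ibrutinib 3.33, adjusted p = 6.93e-08).

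Per 100 TPM of Gzmb there were 0.921 ± 0.167 TPM of Serpinb9 (SD, n = 4) in repeat peptide cells with DMSO and 1.92 ± 0.309 TPM (SD, n = 5) with ibrutinib. Single peptide cells had 3.43 ± 0.475 TPM (SD, n = 5) with DMSO and 7.95 ± 3.80 TPM (SD, n = 4) with ibrutinib. The ranges were 0.757 to 1.11, 1.48 to 2.33, 3.06 to 4.26 and 4.54 to 12.9 TPM in that order, without overlap. The ratio was 2.09-fold higher with ibrutinib in repeat peptide cells and 2.15-fold higher in single peptide cells. Serpinb9 itself did not rise there (log2 -0.06 and -0.34, neither called by edgeR), so the higher ratio goes with the fall of Gzmb. Repeat stimulation lowered the ratio 3.75-fold with DMSO and 3.84-fold with ibrutinib. Serpinb9 itself rose in these comparisons (log2 1.12 and 1.41), and Gzmb rose more. Each of the 4 comparisons of the ratio had p = 0.0159 in a two-sided exact permutation test over 126 splits. This is the smallest p the test can give, and it was 0.0159 after adjustment over the 4.

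**Figure D5:**
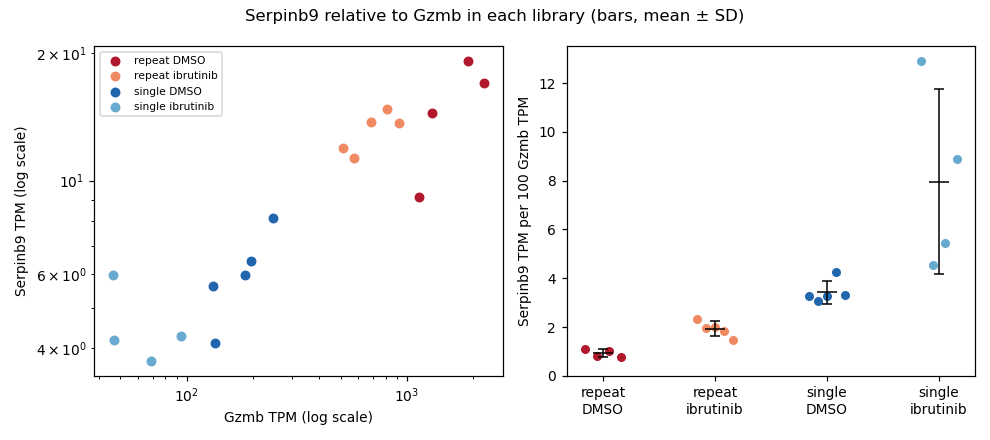
Left, Serpinb9 TPM (y axis, log scale) against Gzmb TPM (x axis, log scale) in 18 libraries. Right, Serpinb9 TPM per 100 TPM of Gzmb by group, with points for libraries and bars for mean ± SD. The ratio is lowest in repeat peptide cells with DMSO (0.757 to 1.11) and highest and most spread in single peptide cells with ibrutinib (4.54 to 12.9).

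Other granule genes give the setting. Of 8 tested granzyme and perforin genes, 3 were lower with ibrutinib in repeat peptide cells, namely Gzmb, Gzmc (log2 -1.70, edgeR adjusted p = 0.00684) and Prf1 (log2 -1.47, adjusted p = 0.00849), and 0 were higher, against 1.92% lower and 4.01% higher among all tested genes. At an unadjusted p under 0.05 edgeR had 1 higher, and DESeq2 called 1 higher. In single peptide cells Gzmb was the only one of the 8 that edgeR called, against 2.69% of all tested genes lower. By DESeq2, and in edgeR at an unadjusted p under 0.05, 2 were lower. Gzmd, Gzme and Gzmf were at 0 TPM in both single peptide groups, so they could not be called there. Of 11 tested cathepsin genes 0 were called with ibrutinib in either stimulation by edgeR or by DESeq2, although 2 in repeat and 1 in single peptide cells were higher at an unadjusted p under 0.05. Repeat stimulation with DMSO had 2 of the 11 cathepsin genes higher and 2 lower, no larger a share than among all tested genes (22.8% higher and 24.2% lower). Ctss, which encodes cathepsin S, was one of the lower (log2 -0.99, adjusted p = 1.34e-05).

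Cystatins, inhibitors of cathepsins outside the serpin family, had 2 of 4 tested genes higher in repeat peptide cells with DMSO, against 22.8% of all tested genes. They were Cst3 (log2 1.70, edgeR adjusted p = 1.15e-05) and Cstb (log2 0.56, adjusted p = 0.0415). DESeq2 called 3 of the 4 higher, and all 4 were higher at an unadjusted p under 0.05 in edgeR. With ibrutinib in both groups, where 18.7% of all genes were higher, Cst3 and Cstb were again higher, at 0.91 (edgeR adjusted p = 0.0051) and 0.63 (adjusted p = 0.0338). There DESeq2 called 2 higher, and 3 were higher at an unadjusted p under 0.05. With ibrutinib against DMSO edgeR called 0 of 4 in either stimulation, and in repeat peptide cells 1 was lower at an unadjusted p under 0.05 and by DESeq2.

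Of 7 tested genes listed as partners of Serpine2, 5 were lower and 0 higher in repeat peptide cells with DMSO. The counts were the same by DESeq2 and at an unadjusted p under 0.05. The list holds proteases and receptors, and all 5 lower genes encode receptors. Plau, the gene of the protease urokinase, did not pass the test (log2 1.66, edgeR adjusted p = 0.138). Among all tested genes 24.2% were lower and 22.8% higher. With DMSO, F2r, the thrombin receptor PAR1, was at a mean of 19.9 TPM in repeat and 71.3 TPM in single peptide cells (log2 -1.99, edgeR adjusted p = 1.85e-06). Plaur, the receptor of urokinase, was at 0.71 TPM against 5.29 TPM (log2 -3.05, adjusted p = 0.000561). With ibrutinib in repeat peptide cells F2r rose to 42.4 TPM (log2 1.14, adjusted p = 0.00507), and F2rl3, another receptor of the family, rose as well (log2 0.64, adjusted p = 0.00793).

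Of 59 other serpin genes, only 5 passed the filter on low counts. Serpini1, or neuroserpin, was the only one called in any comparison by edgeR. It rose with ibrutinib in repeat peptide cells from a mean of 2.38 to 4.59 TPM (log2 0.94, edgeR adjusted p = 0.00825) and was lower in repeat than in single peptide cells with DMSO (log2 -1.64, adjusted p = 3.36e-06).

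Patterns over the 18 libraries were compared by the root mean square difference of standardized log2 CPM (counts scaled to library size), as a description. Among the serpin genes the closest pair was Serpina3f and Serpina3g (0.304), followed by Serpinb6b and Serpinb9 (0.365) and by Serpinb9b and Serpine2 (0.367). Serpinb1a was far from all others, at 1.69 or more. Among all tested genes other than the serpin genes, Nagk was nearest to Serpinb6a (0.172), Dusp14 to Serpine2 (0.192) and Tnfrsf9 to Serpinb6b (0.214). Tnf was nearest to Serpina3f (0.45), Mxd3 to Serpina3g (0.357), Thap3 to Serpinb1a (0.331), Minar1 to Serpinb9 (0.351) and Cnih3 to Serpinb9b (0.27). The median over all tested genes lay between 1.36 and 1.41 for each. These profiles share their libraries and groups.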

How the data were processed

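Polyadenylated RNA of 18 OT-I CD8+ T cell libraries was sequenced, and the authors trimmed the reads and mapped them to GRCm38 with STAR inside RSEM 1.3.1. The deposited expected counts, which the authors estimated with RSEM, need not be whole, and the deposited TPM values are scaled by the authors for transcript length and library total. The deposited effective length of each gene was used only in an alternative. Whether counting used the strand is not given in the sources used here.

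Expected counts were rounded, keeping protein-coding genes, lncRNA genes and the serpin genes by GENCODE M21 (98.5% of counts). R 4.3.3 with limma 3.58.1 and edgeR 4.0.16 (TMM, filterByExpr, robust quasi-likelihood test, all 4 groups in 1 fit) was used. DESeq2 1.42.0 served for alternatives and scipy 1.17.1 for the exact permutation test. Total expected counts per library had a median of 27420966. No library was a copy of another, as chi-square per degree of freedom within groups was 28.6 to 225. Groups and experiments come from the labels. All 24 pairs of libraries of the same experiment had deviations from their group means that correlated above 0.1 (0.16 to 0.494), against a median of -0.0765 for 97 other pairs, so experiments pair the libraries. Neither the main fit nor the permutation test used this pairing. The study's methods name no block for the sequencing, although its other tests were paired. The block is an alternative, and the calls it changed are given. Each script with a test was tested on simulated data.

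The genes and lists were chosen with earlier results of these data known. Of the called genes outside the serpin list, at most the 2 with the largest change per list and comparison were named, and Gzmb in every comparison. Sequences come from RefSeq promoters on GRCm38.p6, with entries for 7 of 9 genes. Alternatives were DESeq2 size factors and Wald test, no filter, the block, only the compared groups, an effective length offset, all gene types, a log2 threshold of 1, counts summed over close copies, and each library left out.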

Additional observations from a re-analysis of the deposited data

Results flagged for a closer look

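Serpina3g had an ibrutinib effect that differed between repeat and single peptide cells by 1.88 on the log2 scale, by the test of the interaction. The level rose in each of experiments A to D in repeat peptide cells and fell in each of them in single peptide cells.

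Serpina3f moved the same way, up in each of 4 experiments in repeat peptide cells and down in each in single peptide cells, a difference of 4.13 on the log2 scale. The difference was not tested, since the gene was chosen for its fall with ibrutinib.

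Serpinb9 per 100 TPM of Gzmb was 4.26 TPM in the single peptide DMSO library of experiment D, which stood apart from the other 4 libraries of its group (at most 3.30 TPM). Among 36 sets of values checked for such a library this was the only one, and chance alone marks about 1 in 20.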

How the results depend on the processing

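Without the filter on low counts, 0 of the 7 genes were called with ibrutinib in single peptide cells and 0 in the interaction, against 1 in each as reported. The fit of only the compared groups called 1 with ibrutinib in repeat peptide cells, against 3 as reported, and 0 in single peptide cells. Without the filter, with the length offset and with all gene types 2 were called in repeat peptide cells, and with the block 4. With the experiment block 2 were called in single peptide cells and 2 in the interaction, and DESeq2 called 2 in single peptide cells. The calls among all 12255 tested genes rose as well. With the block, 491 higher and 235 lower became 1038 and 656 in repeat peptide cells. In single peptide cells 43 higher and 330 lower became 340 and 774 with the block, and 87 and 529 with DESeq2. In the interaction 128 higher and 26 lower became 545 and 134 with the block. Leaving out each library in turn, the number called ranged from 1 to 3 with ibrutinib in repeat peptide cells, from 0 to 1 in single peptide cells and from 0 to 2 in the interaction. The block otherwise changed no call but those of Serpina3g in repeat peptide cells and of Serpinb1a between stimulations with ibrutinib, given above.

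Some changes that did not pass the test turned direction. With counts summed over close copies, Serpinb6a in single peptide cells had a log2 change of -0.17 (-0.165), and the interaction was -0.03 (-0.033) for Serpinb6b and 0.09 (0.091) for Serpinb9b. Without single libraries, Serpinb9 with ibrutinib in repeat peptide cells ranged from -0.20 to 0.08 (0.083, 0.05, 0.05 and 0.004 without DMSO C, DMSO D, ibrutinib A and ibrutinib B), and in single peptide cells Serpinb9b from -1.14 to 0.63 (positive at 0.627 without DMSO A and 0.017 without ibrutinib B). Serpine2 there ranged from -0.24 to 0.28 (positive at 0.28, 0.01, 0.261 and 0.023 without DMSO A, DMSO C, ibrutinib B and ibrutinib D). Serpina3f between the DMSO groups was -0.19 (-0.192) with the block and ranged from -0.37 to 0.38, turning to -0.365 without repeat peptide D and to -0.084, -0.038 and -0.153 without single peptide B, D and F. The cause was not tested. The ratio of Serpinb9 to Gzmb kept its direction and threshold with expected counts in place of TPM, and its direction when paired within experiments, where no p was computed. Leaving out a library could change neither, since the groups do not overlap. Of 1066 values of single genes under an alternative, 1002 kept direction and call or, for Serpina3f, direction and a value within the SE of the main one. The alternative with a log2 threshold of 1 reuses the main fit, so it could change calls only. Depth limits Serpinb9b, which had at most 8 counts in any single peptide library.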
